A study of Mus musculus with 12 samples.

Results

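The guanylate-binding proteins (GBPs) are a family of 7 genes here, Gbp2, Gbp3, Gbp5, Gbp6, Gbp7, Gbp8 and Gbp9, whose mRNA was measured in islets of pregnant and non-pregnant mice with and without the prolactin receptor. Members were taken by gene symbol: a probe set belonged to the family when the array annotation named a member alone or only together with other Gbp genes, and where a gene had several, the one with the highest mean of the 12 arrays was read. The annotation names 19938 genes by an individual probe set in all. Of the 10 probe sets that name Gbp genes, 7 represent the members. Gbp3, Gbp5, Gbp7, Gbp8 and Gbp9 each had a probe set of their own. Gbp2 was read from a probe set that also names Gbp2b, and Gbp6 from one that names Gbp4, Gbp6, Gbp8, Gbp9, Gbp10 and Gbp11 together, called the shared probe set from here on.

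Islets were isolated from mice of the 129Sv background at 13 to 20 weeks of age, in 4 groups of 3 arrays: pregnant Prlr-/- mice, taken on day 9.5 (P9.5), Prlr+/+ mice at P9.5, non-pregnant (NP) Prlr-/- mice and NP Prlr+/+ mice. The age is that of the study's methods, and a figure legend gives a slightly wider range for the P9.5 mice. Prlr-/- mice lack the receptor for prolactin and placental lactogen in every tissue, not in islets alone. Pregnant Prlr-/- mice also carried a pellet of 5 mg progesterone, which allows implantation, so at P9.5 the genotype and the pellet cannot be told apart. No probe set carries the symbol Prlr in the annotation used here, and the deletion was therefore not checked on the arrays.

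GBPs are large GTPases of the dynamin superfamily whose genes are switched on by interferons, most of all by interferon gamma, through STAT and IRF transcription factors. In infected mouse cells they gather on the vacuoles and membranes of parasites and bacteria, and some of them promote inflammasome activation. The prolactin receptor signals mainly through JAK2 and STAT5, and during pregnancy it drives much of the change in gene expression of the beta cell. Mouse Gbp genes lie in a pair of clusters, one on chromosome 3 and one on chromosome 5.

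Values are log2 expression from robust multichip analysis, rounded to steps of 0.1, so a difference of 1 is a doubling. Levels of different probe sets cannot be set against each other. Beta cell markers averaged 10.78 to 10.81 in Prlr-/- P9.5, 10.77 to 10.87 in Prlr+/+ P9.5, 10.59 to 10.86 in Prlr-/- NP and 10.79 to 10.86 in Prlr+/+ NP islets (9 genes). Within this list Ucn3 rose by 0.60 at P9.5 in both genotypes, and Nkx6-1 (-0.73) and Mafa (-0.67) fell in Prlr+/+ islets, while Nkx6-1 changed by -0.37 and Mafa by -0.30 in Prlr-/- islets without a call. The part of these changes in the Gbp values was not tested. One array stood apart: replicate 2 of Prlr+/+ P9.5 read 3.8 for Xist, the transcript behind X inactivation, against 10.0 to 10.7 on every other array, while Y-linked Kdm5d (4.2), Uty (3.7) and Eif2s3y (3.4) were within their range in the other arrays. Kdm5d lay between 4.1 and 4.6 on all arrays. It is used below only as a rough floor for counts of dim markers, since probe sets differ in background. A gene was called at a fold change of at least 1.5 and a Benjamini-Hochberg adjusted p under 0.05 over all 35511 probe sets (limma). The labels call the arrays biological replicates without saying which animals or pools they came from.

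The DNA just before the start of 4 of the 7 members was taken from RefSeq (GRCm38.p6), each window holding 250 bases before and 50 after the start. Gbp2, Gbp3, Gbp5 and Gbp7, all on chromosome 3, had an entry. Gbp6, Gbp8 and Gbp9 were not among the entries used. Windows of Gbp7, Gbp3 and Gbp5 are shown because Gbp7 and Gbp3 were the members called in Prlr-/- islets, and because Gbp5, their neighbour, was called in no comparison. Capitals mark TTCNNNGAA, the letters that STAT dimers recognise, and TTTCNNTTTC, the core of the interferon response element that IRF factors bind, both searched on both strands.
Gbp7, chr3:142530086-142530385, plus strand: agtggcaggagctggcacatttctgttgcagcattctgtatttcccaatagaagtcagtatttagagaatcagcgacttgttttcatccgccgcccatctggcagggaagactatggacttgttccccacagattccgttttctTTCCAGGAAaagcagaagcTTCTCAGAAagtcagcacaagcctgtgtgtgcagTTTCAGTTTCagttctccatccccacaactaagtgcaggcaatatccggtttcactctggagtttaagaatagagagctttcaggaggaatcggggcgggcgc
Gbp3, chr3:142559794-142560093, plus strand: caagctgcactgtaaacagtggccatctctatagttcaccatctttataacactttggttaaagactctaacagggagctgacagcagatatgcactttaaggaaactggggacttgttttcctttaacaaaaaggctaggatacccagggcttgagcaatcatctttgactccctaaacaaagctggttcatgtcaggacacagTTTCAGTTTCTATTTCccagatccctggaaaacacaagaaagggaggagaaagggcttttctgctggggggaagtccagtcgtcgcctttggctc
Gbp5, chr3:142496684-142496983, plus strand: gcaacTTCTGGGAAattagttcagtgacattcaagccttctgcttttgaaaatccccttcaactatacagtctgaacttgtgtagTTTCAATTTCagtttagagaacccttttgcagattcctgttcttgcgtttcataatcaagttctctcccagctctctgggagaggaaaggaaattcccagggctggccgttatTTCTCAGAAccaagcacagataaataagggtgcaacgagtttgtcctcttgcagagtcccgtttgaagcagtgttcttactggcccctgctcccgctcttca
Gbp7 held TTCNNNGAA beginning 106 and 87 bases before the start and TTTCNNTTTC at 53. Gbp5 held TTCNNNGAA at 245 and 52 bases before the start and TTTCNNTTTC at 165. Gbp3 held 2 overlapping matches of TTTCNNTTTC, at 45 and 39, and no TTCNNNGAA, while the window of a second RefSeq start of Gbp3 held neither. Gbp2 had 1 match of TTTCNNTTTC at 59 bases before its start. Of all 32851 promoter windows of this length, 8.3% held TTCNNNGAA, 3.44% held TTTCNNTTTC and 0.454% held both. A match is a run of letters, and no binding was measured.

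Gbp8 rose in Prlr+/+ islets at P9.5, and at P9.5 every Prlr-/- array was below every Prlr+/+ array. Its log2 values were 5.7, 5.5 and 5.7 in Prlr-/- P9.5 islets, 6.5, 6.5 and 7.4 in Prlr+/+ P9.5 islets, 5.6, 5.4 and 5.4 in Prlr-/- NP islets and 5.5, 5.0 and 5.4 in Prlr+/+ NP islets. Only the 3 Prlr+/+ P9.5 arrays were high, and replicate 3 of them stood 0.9 above the other two. On that array stromal markers (9 genes) averaged 7.06, with 6.67 and 6.58 in replicates 1 and 2, and acinar markers (8 genes) averaged 10.64, with 9.76 and 9.44, and their part in the Gbp8 value was not tested. Means were 5.63 ± 0.12 in Prlr-/- P9.5, 6.80 ± 0.52 in Prlr+/+ P9.5, 5.47 ± 0.12 in Prlr-/- NP and 5.30 ± 0.26 in Prlr+/+ NP islets (SD, n = 3 each). The log2 fold change of P9.5 over NP was 0.17 in Prlr-/- islets (standard error 0.217, adjusted p = 0.577 from limma) and 1.5 in Prlr+/+ islets (standard error 0.217, adjusted p = 0.00103 from limma). At P9.5 the difference of Prlr-/- from Prlr+/+ islets was -1.17 (standard error 0.217), which missed the threshold over all probe sets (adjusted p = 0.0689 from limma). Without Prlr+/+ P9.5 replicate 3 the change at P9.5 over NP was 1.2 (adjusted p = 0.00162 from limma), and the genotype difference was -0.87 (adjusted p = 0.0652 from limma). Without replicate 2, the array with low Xist, the same values were 1.65 (adjusted p = 0.00318) and -1.32 (adjusted p = 0.0835, both from limma). In islet RNA, a lower share of cells that express a gene and less RNA per cell cannot be told apart.

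**Figure D1:**
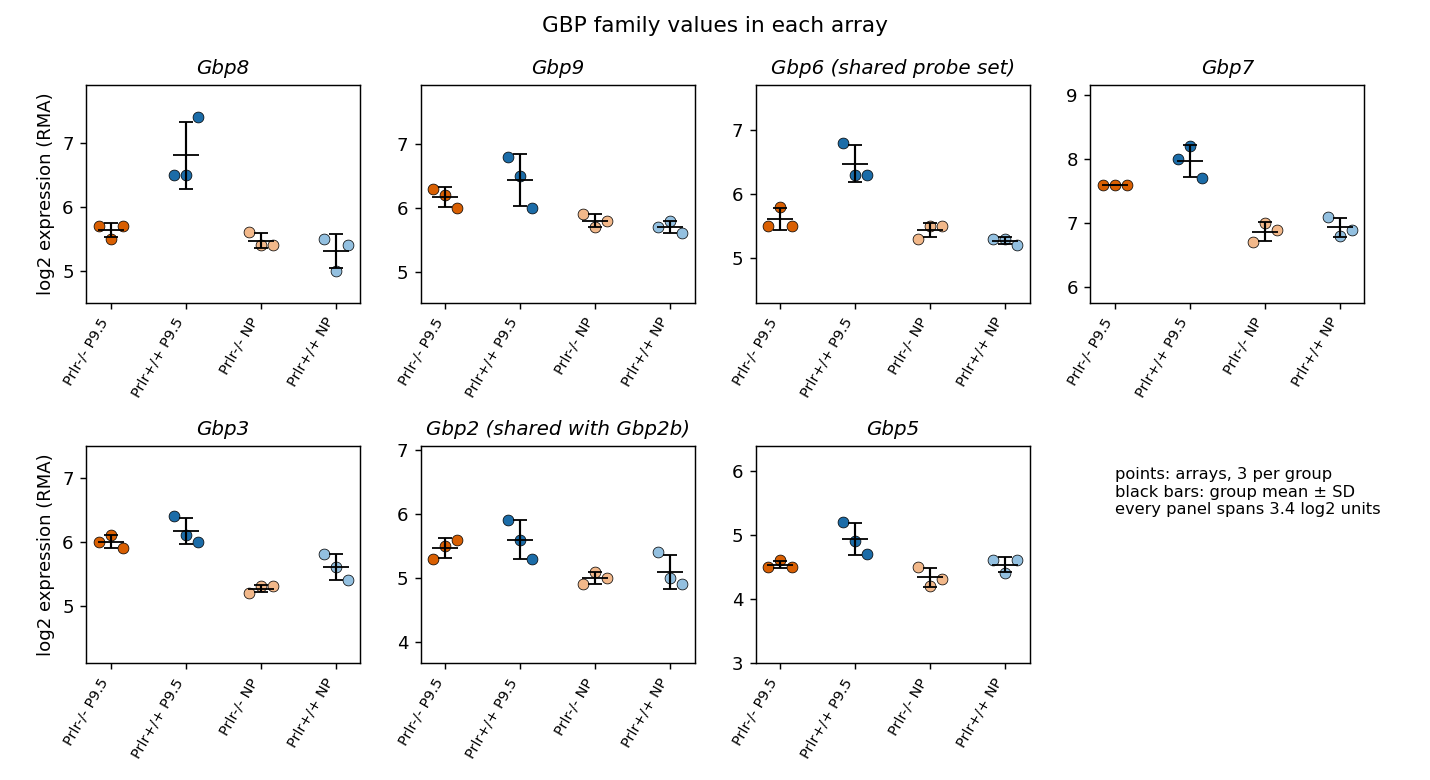
Log2 expression of the 7 GBP members in each array (points, 3 per group), with the group mean and SD in black. Groups run from Prlr-/- P9.5 and Prlr+/+ P9.5 to Prlr-/- NP and Prlr+/+ NP, each panel spans the same log2 width, and Gbp8 shows 3 high arrays, all of them Prlr+/+ P9.5 (6.5, 6.5 and 7.4).

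Gbp8 is also 1 of the 12 genes of the study's islet pregnancy gene signature, which the authors took from their earlier work on pregnant islets. By limma, 11 of these 12 were called higher at P9.5 than in NP islets of Prlr+/+ mice, Gbp8 among them, and 8 were called lower in Prlr-/- than in Prlr+/+ islets at P9.5, Gbp8 not among them. At an unadjusted p under 0.05, 11 of the 12 were lower, Gbp8 included (0.00019, limma). Its adjusted p over all 35511 probe sets was 0.0689 (limma), and some of the alternatives given below did call it. The authors tested only genes already known to change at P9.5. They reported 11 of the 12 as lower in Prlr-/- islets, with no difference for Tph1. Their count and the 8 calls here are adjusted over different sets of probe sets.

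On chromosome 5, the shared probe set was also high only in Prlr+/+ P9.5 islets, though its arrays were ordered differently from those of Gbp8. It read 5.5, 5.8 and 5.5 in Prlr-/- P9.5 islets, 6.8, 6.3 and 6.3 in Prlr+/+ P9.5 islets, 5.3, 5.5 and 5.5 in Prlr-/- NP islets and 5.3, 5.3 and 5.2 in Prlr+/+ NP islets. Replicate 1 was its highest array, where Gbp8 was highest in replicate 3. P9.5 over NP was 0.17 in Prlr-/- islets (adjusted p = 0.381 from limma) and 1.2 in Prlr+/+ islets (standard error 0.142, adjusted p = 0.000495 from limma). In Prlr-/- islets it was lower than in Prlr+/+ islets at P9.5 (-0.87, standard error 0.142, adjusted p = 0.0298 from limma), the one genotype call of the family. This call was lost when any 1 of 8 of the 12 arrays was left out, among them Prlr+/+ P9.5 replicate 1 (-0.70, adjusted p = 0.0766 from limma) and replicate 2 (-0.95, adjusted p = 0.0518 from limma). Which of the 6 named genes gave the signal cannot be told from this probe set, and the value stands for Gbp6 only in that sense.

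Gbp9, the neighbour of Gbp8, changed less. Its log2 values were 6.3, 6.2 and 6.0 in Prlr-/- P9.5 islets, 6.8, 6.5 and 6.0 in Prlr+/+ P9.5 islets, 5.9, 5.7 and 5.8 in Prlr-/- NP islets and 5.7, 5.8 and 5.6 in Prlr+/+ NP islets. Both P9.5 groups lay above their NP groups, and they overlapped each other. In Prlr-/- islets P9.5 over NP was 0.37 (standard error 0.17, adjusted p = 0.116 from limma). The rise in Prlr+/+ islets was called (0.73, standard error 0.17, adjusted p = 0.0105 from limma) but rested on replicate 1, without which it was 0.55 (adjusted p = 0.0388 from limma) and below the fold minimum.

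Outside the 7 members, the chromosome 5 genes with an individual probe set were Gbp4 and Gbp11, a transcribed pseudogene in RefSeq. Gbp4 was at 5.7, 6.0 and 5.6 in Prlr-/- P9.5, 6.9, 6.3 and 5.9 in Prlr+/+ P9.5, 5.6, 5.4 and 5.4 in Prlr-/- NP and 5.4, 5.5 and 5.7 in Prlr+/+ NP islets. Its rise in Prlr+/+ islets (0.83, adjusted p = 0.0152 from limma) was lost without Prlr+/+ P9.5 replicate 1. Gbp11 was at 4.4, 4.6 and 4.5 in Prlr-/- P9.5, 5.4, 4.9 and 5.3 in Prlr+/+ P9.5, 4.3, 4.5 and 4.6 in Prlr-/- NP and 4.5, 4.6 and 4.4 in Prlr+/+ NP islets. Only Prlr+/+ P9.5 arrays were above 4.6, and the rise there was called (0.70, standard error 0.135, adjusted p = 0.00421 from limma). The background of this probe set is not known, and a change from a low level can be understated. Gbp10 is named only by the shared probe set.

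On chromosome 3, Gbp7 was higher at P9.5 than in NP islets of both genotypes. In Prlr-/- mice this comparison, for every gene, holds the progesterone pellet as well as pregnancy, and the pair cannot be told apart. It read 7.6 on all 3 Prlr-/- P9.5 arrays, 8.0, 8.2 and 7.7 in Prlr+/+ P9.5 islets, 6.7, 7.0 and 6.9 in Prlr-/- NP islets and 7.1, 6.8 and 6.9 in Prlr+/+ NP islets. All 6 P9.5 arrays were above all 6 NP arrays. The change was 0.73 in Prlr-/- islets (standard error 0.133, adjusted p = 0.00201 from limma) and 1.03 in Prlr+/+ islets (standard error 0.133, adjusted p = 0.000651 from limma). At P9.5 the Prlr-/- arrays were below the Prlr+/+ arrays (-0.37), a difference that was not called (adjusted p = 0.744 from limma). Mouse GBP7 is known from macrophages, where it takes part in host defence against bacteria.

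Gbp3 likewise was higher at P9.5 in Prlr-/- islets. Its values were 6.0, 6.1 and 5.9 in Prlr-/- P9.5, 6.4, 6.1 and 6.0 in Prlr+/+ P9.5, 5.2, 5.3 and 5.3 in Prlr-/- NP and 5.8, 5.6 and 5.4 in Prlr+/+ NP islets. The Prlr-/- NP arrays were the lowest of the 12, each below every Prlr+/+ NP array. P9.5 over NP was 0.73 in Prlr-/- islets (standard error 0.128, adjusted p = 0.00156 from limma) and 0.57 in Prlr+/+ islets, which passed the adjusted p (0.00904 from limma) but not the fold minimum. The NP genotype difference of -0.33 was not called (adjusted p = 0.319 from limma).

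Gbp2, known for its recruitment to parasite vacuoles in mouse cells, was read from the probe set it shares with Gbp2b. It was at 5.3, 5.5 and 5.6 in Prlr-/- P9.5, 5.9, 5.6 and 5.3 in Prlr+/+ P9.5, 4.9, 5.1 and 5.0 in Prlr-/- NP and 5.4, 5.0 and 4.9 in Prlr+/+ NP islets. The P9.5 arrays were above the NP arrays in Prlr-/- islets, and the groups overlapped in Prlr+/+ islets. The P9.5 over NP values, 0.47 for Prlr-/- (adjusted p = 0.0482, limma) and 0.50 for Prlr+/+ islets (adjusted p = 0.0504, limma), were both under the fold minimum. The probe set of Gbp2b alone changed by 0.00 in Prlr-/- islets (adjusted p = 1.0 from limma) and by 0.50 in Prlr+/+ islets (adjusted p = 0.0052 from limma).

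Gbp5, which promotes inflammasome assembly in macrophages, was called in no comparison. Its values were 4.5, 4.6 and 4.5 in Prlr-/- P9.5, 5.2, 4.9 and 4.7 in Prlr+/+ P9.5, 4.5, 4.2 and 4.3 in Prlr-/- NP and 4.6, 4.4 and 4.6 in Prlr+/+ NP islets. Only Prlr+/+ P9.5 arrays were above 4.6. The Prlr+/+ change of 0.40 had an adjusted p of 0.0478 from limma and was under the fold minimum.

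Counted over the family, 2 of 7 members (Gbp3 and Gbp7) were called higher at P9.5 than in NP islets of Prlr-/- mice, where 7.44% of all probe sets were called higher. The P9.5 arrays were all above the NP arrays for 4 of 7 members there (Gbp2, Gbp3, Gbp7 and Gbp9), against 19.4% of all probe sets. The median was 0.37, beside -0.07 over all probe sets. In Prlr+/+ mice 4 of 7 members (Gbp6, Gbp7, Gbp8 and Gbp9) were called higher at P9.5 than in NP islets, where 5.73% of all probe sets were called higher. The groups did not overlap for 6 of 7 members, all higher at P9.5, against 15.0% of all probe sets, Gbp2 being the exception. The median log2 fold change of the members was 0.73, beside -0.07 over all probe sets. Gbp6 enters these and the later counts by the shared probe set. That probe set also names Gbp8 and Gbp9, so Gbp6 is not independent of them in any count.

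**Figure D2:**
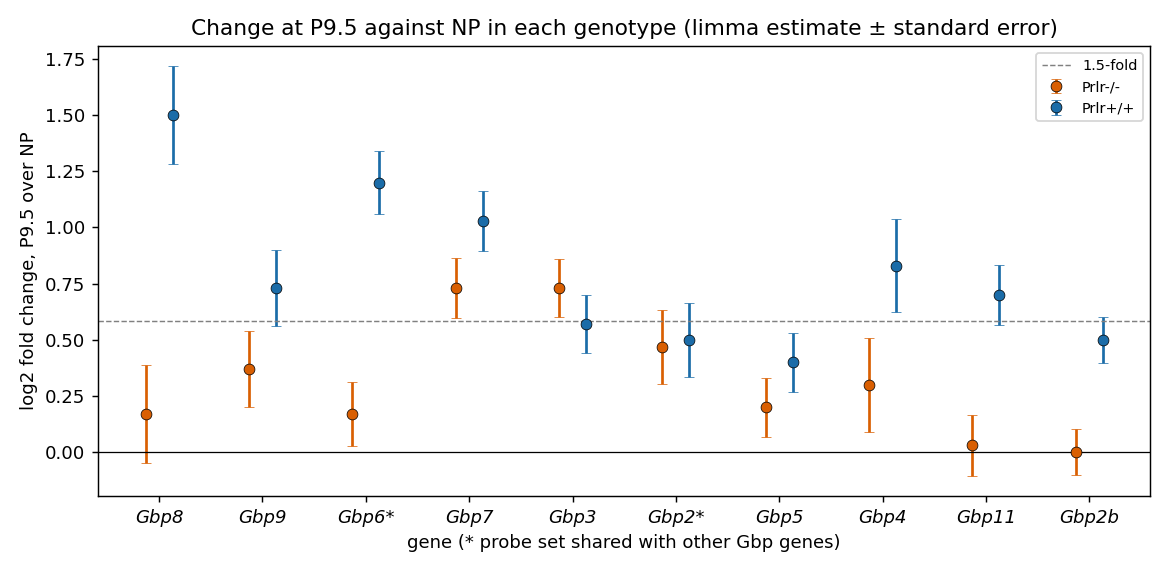
Log2 fold change of P9.5 over NP (limma estimate and standard error) in Prlr-/- (orange) and Prlr+/+ (blue) islets for the 7 members and for Gbp4, Gbp11 and Gbp2b; the dashed line is a fold change of 1.5. Gbp8 and the shared probe set (Gbp6) lie near 0 in Prlr-/- islets (0.17 each) and above 1 in Prlr+/+ islets (1.5 and 1.2), and Gbp3 is 0.73 in Prlr-/- and 0.57 in Prlr+/+ islets.

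Between genotypes at P9.5, 1 of 7 members was called lower in Prlr-/- islets (Gbp6, by the shared probe set), where 0.206% of all probe sets were called lower, and 0 were called higher, against 0.0253% of all probe sets. Every Prlr-/- array was below every Prlr+/+ array for 4 of 7 members (Gbp5, Gbp6, Gbp7 and Gbp8), against 2.91% of all probe sets. The median log2 fold change was -0.37, beside 0.00 over all probe sets. This comparison and the Prlr+/+ pregnancy comparison share the 3 Prlr+/+ P9.5 arrays and are not independent of each other. In NP islets 0 of 7 members were called by limma, where 0.101% of all probe sets were called in either direction. At an unadjusted p under 0.05, 1 of 7 was lower in Prlr-/- islets (Gbp3), against 5.19% of all probe sets. Only Gbp3 did not overlap between the NP genotypes, 1 of 7 against 5.22% of all probe sets lower in Prlr-/- islets.

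The interaction asks whether the change with pregnancy differed between genotypes. It was called for 0 of 7 members by limma, where 0.0788% of all probe sets were called. It was -1.33 for Gbp8 (standard error 0.308, adjusted p = 0.183 from limma) and -1.03 for the shared probe set (standard error 0.201, adjusted p = 0.111 from limma), the 2 members with an unadjusted p under 0.05, against 5.59% of all probe sets in that direction. For Gbp2, Gbp3, Gbp5, Gbp7 and Gbp9 it lay between -0.37 and 0.17. Outside the 7 members it was -0.67 for Gbp11 (unadjusted p = 0.00464) and -0.50 for Gbp2b (unadjusted p = 0.00452, both from limma). For Gbp4 it was -0.53 (unadjusted p = 0.0964 from limma), and none of them was called. The different calls of the members in Prlr-/- and Prlr+/+ islets are therefore not shown to differ between the genotypes.

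In the order of the genes on the chromosomes (RefSeq, GRCm38.p6, used for gene order only), the chromosome 3 cluster runs Gbp5, Gbp7, Gbp3, Gbp2b, Gbp2 and the chromosome 5 cluster Gbp8, Gbp9, Gbp4, Gbp10, Gbp6, Gbp11. Log2 fold changes between genotypes at P9.5 lay between -0.40 and -0.13 for the 5 genes on chromosome 3. On chromosome 5 they were -1.17 for Gbp8, -0.27 for Gbp9, -0.60 for Gbp4, -0.87 for the shared probe set and -0.70 for Gbp11. Gbp9, between Gbp8 and Gbp4, was thus the chromosome 5 gene with the smallest difference.

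Of the 8 genes that flank the clusters, picked by position after values were seen, 1 was called between genotypes at P9.5. Lrrc8c, which encodes a subunit of volume-regulated anion channels and lies beyond Gbp11 and Lrrc8b, was at 6.8, 6.7 and 6.7 in Prlr-/- P9.5, 7.7, 8.1 and 7.7 in Prlr+/+ P9.5, 6.5, 6.5 and 6.4 in Prlr-/- NP and 6.7, 7.0 and 6.8 in Prlr+/+ NP islets. Only the Prlr+/+ P9.5 arrays were above 7.0. Its genotype difference at P9.5 was -1.10 (standard error 0.121, adjusted p = 0.00174 from limma) and was called whichever of the 12 arrays was left out. At P9.5 over NP, Lrrc8c changed by 0.27 in Prlr-/- islets (adjusted p = 0.11 from limma) and rose by 1.00 in Prlr+/+ islets (adjusted p = 0.000536 from limma). The interaction was not called (-0.73, adjusted p = 0.188 from limma). In NP islets its Prlr-/- arrays were already below its Prlr+/+ arrays without a call (-0.37, adjusted p = 0.261 from limma). Gtf2b, a general transcription factor gene on the far side of Gbp2 and Kyat3, changed by 0.53 in Prlr-/- islets, under the fold minimum, and rose by 0.83 in Prlr+/+ islets (adjusted p = 0.000775 from limma). Lrrc8b, between Gbp11 and Lrrc8c, was not called in any comparison, and neither were Zfp951 and Abcg3 on the other side of Gbp8.

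**Figure D3:**
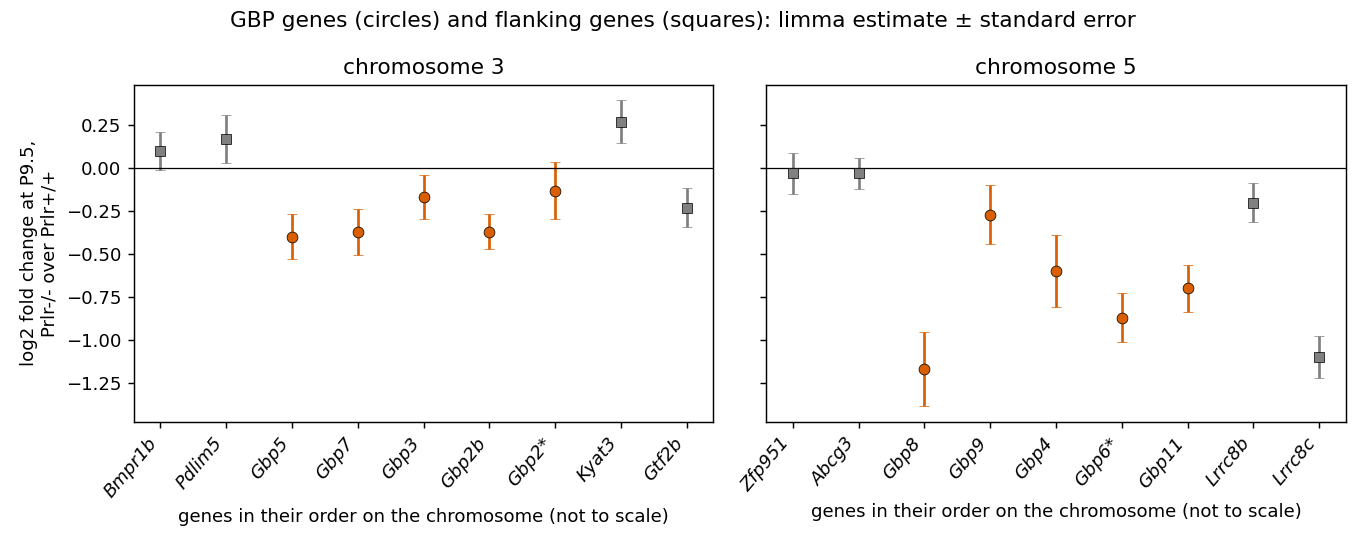
Log2 fold change of Prlr-/- over Prlr+/+ islets at P9.5 (limma estimate and standard error) for the Gbp genes (circles) and their flanking genes (squares) in chromosome order, not to scale; the point of Gbp6 is the shared probe set, which also stands for Gbp10. Gbp8 (-1.17), Gbp6 (-0.87) and Lrrc8c (-1.10) are the lowest points, and the 5 Gbp genes of chromosome 3 lie between -0.40 and -0.13.

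The 3 Prlr+/+ P9.5 arrays did not show the family in the same order. Replicate 1 was the highest of the 3 for 5 of 7 members (Gbp2, Gbp3, Gbp5, Gbp6 and Gbp9), where 24.0% of all probe sets were highest there. Replicate 3 was the lowest, alone or tied, for 6 of 7, a share not compared with all probe sets, and it was the highest for Gbp8. The immunity-related GTPases, a second family of interferon-inducible GTPases that act with GBPs on vacuoles in mouse cells, were also high in replicate 1, in 6 of 8 probe sets. Of those 8, 3 stood at least 1 above both other arrays, against 0.296% of all probe sets: Iigp1 was at 6.5 in replicate 1 and at 4.5 in both others, Gm12250 (Irgb10) at 6.1 and 5.1, and the probe set of Tgtp2 and Tgtp1 at 7.0, with 5.7 and 5.6. No such gap was seen for Gbp8, at 6.5, 6.5 and 7.4.

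**Figure D4:**
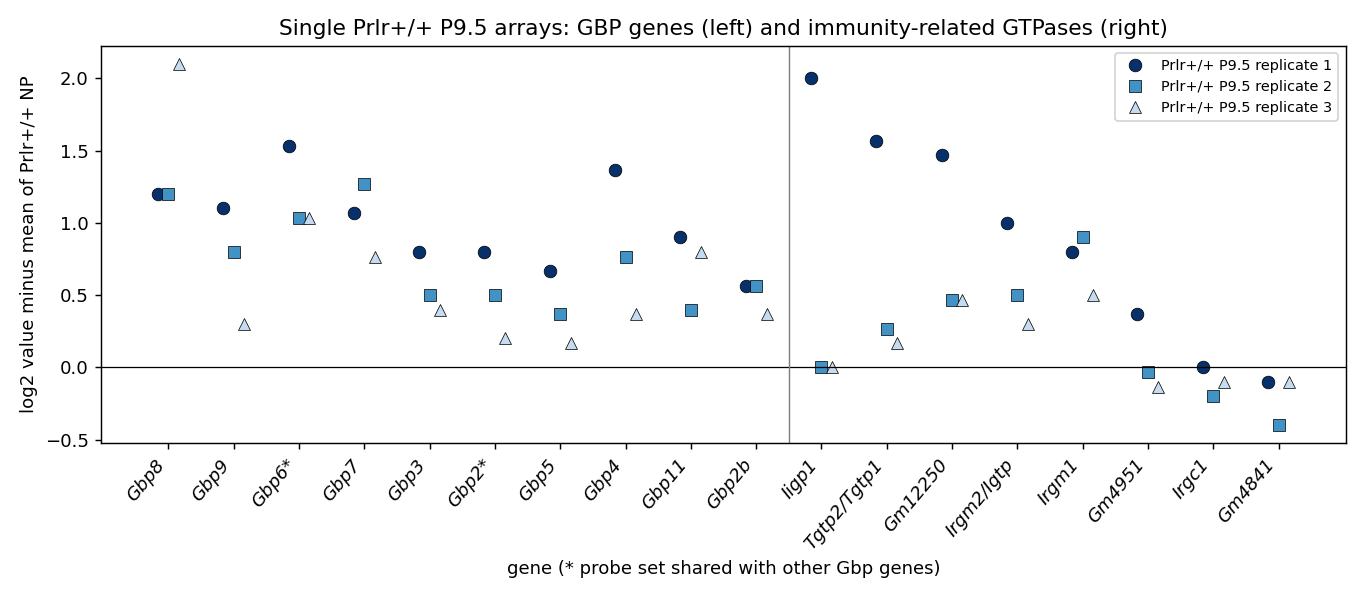
Log2 value of each Prlr+/+ P9.5 array (replicate 1 circles, replicate 2 squares, replicate 3 triangles) minus the mean of the 3 Prlr+/+ NP arrays, for the Gbp genes (left) and 8 probe sets of immunity-related GTPases (right). Iigp1 was at 6.5 in replicate 1 and 4.5 in the others, whereas Gbp8 was highest in replicate 3 (7.4).

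Other interferon-linked genes were counted by list. Of all probe sets, 7.44% were called higher at P9.5 than in NP islets of Prlr-/- mice and 5.73% in Prlr+/+ mice. Of 8 probe sets of immunity-related GTPases, 0 were called between genotypes at P9.5 (median -0.33), 1 was higher at P9.5 than in NP Prlr-/- islets (median 0.02) and 3 were higher at P9.5 than in NP Prlr+/+ islets (median 0.63). Irgm1 rose by 0.73 in both genotypes (adjusted p = 0.00127 in Prlr-/- and 0.0021 in Prlr+/+ islets, limma). Gm12250 (0.80) and the probe set of Irgm2 and Igtp (0.60) rose in Prlr+/+ islets, and both calls were lost without Prlr+/+ P9.5 replicate 1, that of Gm12250 also without Prlr+/+ NP replicate 2 or 3. The list averaged 6.01 on that array, and 5.31 and 5.26 on the other Prlr+/+ P9.5 arrays.

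Among 17 genes of the interferon gamma receptor, JAK, STAT and IRF factors, 0 were called between genotypes at P9.5 and 0 at P9.5 against NP in Prlr+/+ islets (medians -0.03 and -0.07). In Prlr-/- islets Ptpn2, a phosphatase that acts on JAK and STAT proteins, rose by 0.80 (adjusted p = 0.000946 from limma), and Nlrc5, a coactivator of MHC class I genes, fell by 0.90 (adjusted p = 0.000186 from limma). In Prlr+/+ islets Ptpn2 averaged 7.03 at P9.5 and 6.53 in NP, without a call. Nlrc5 changed there by -0.47 (adjusted p = 0.00964 from limma), under the fold minimum. Ifng itself was at 4.7 to 5.0 on all arrays. Irf1, an IRF factor that acts on Gbp genes, was at 7.2, 7.2 and 7.2 in Prlr-/- P9.5, 7.2, 7.1 and 7.0 in Prlr+/+ P9.5, 6.8, 6.9 and 6.8 in Prlr-/- NP and 6.8, 6.9 and 6.9 in Prlr+/+ NP islets, and was not called. Its P9.5 arrays were above its NP arrays in both genotypes, by less than the fold minimum. None of the 9 inflammasome genes was called by limma in any comparison (at most 2 at an unadjusted p under 0.05 in 1 direction).

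Of 26 genes of the type I interferon response, 5 rose in Prlr-/- islets at P9.5 against NP: Ifih1, a sensor of double-stranded RNA (1.10), the receptor genes Ifnar2 (0.87) and Ifnar1 (0.67), Trim30a (0.63) and Parp14 (0.60). In Prlr+/+ islets 1 was called, Parp14 (0.63). Adjusted p-values were 0.000124 to 0.0182 (limma), and the calls of Ifnar1, Trim30a and Parp14 were lost without at least 1 of the 12 arrays, Prlr-/- NP replicate 1 among them in Prlr-/- islets. Between genotypes at P9.5, 0 of the 26 were called (median 0.02), and 0 were called for the interaction. The 5 calls in Prlr-/- and 1 in Prlr+/+ islets stand beside 7.44% and 5.73% of all probe sets called higher. At an unadjusted p under 0.05 (limma), 12 of the 26 were higher at P9.5 in Prlr-/- and 9 in Prlr+/+ islets. In each genotype 2 were lower, and the medians were 0.22 in Prlr-/- and 0.12 in Prlr+/+ islets. Ifih1, Ifnar2, Ifnar1 and Trim30a, called only in Prlr-/- islets, had higher means at P9.5 in Prlr+/+ islets too. These were 7.87, 7.80, 7.80 and 6.77 at P9.5 and 7.50, 7.30, 7.33 and 6.23 in NP. Their Prlr-/- means were 7.97, 7.77, 7.90 and 6.60 at P9.5 and 6.87, 6.90, 7.23 and 5.97 in NP.

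Markers of other cells were read beside these results. Macrophage and dendritic cell markers averaged 5.80 to 5.84 in Prlr-/- P9.5, 5.93 to 6.04 in Prlr+/+ P9.5, 5.7 to 5.9 in Prlr-/- NP and 5.78 to 6.11 in Prlr+/+ NP islets (12 genes, none at or below the highest Kdm5d value). The P9.5 genotypes did not overlap on this list, 0 of its 12 genes were called between them, and its part in the lower Gbp values of Prlr-/- P9.5 islets was not tested. On this list Prlr+/+ NP replicate 1 was the highest array (6.11). In its group it was the highest array alone for 4 of the 7 members (Gbp2, Gbp3, Gbp7 and Gbp8), was tied for Gbp5 and Gbp6, and was not the highest for Gbp9, a share not compared with all probe sets. In Prlr+/+ P9.5 replicates 1, 2 and 3 the list averaged 6.04, 5.96 and 5.93, and pan-leukocyte markers averaged 5.98, 5.86 and 5.84. At P9.5 over NP, the list's median change was 0.00 in Prlr-/- and 0.17 in Prlr+/+ islets, and 1 of its 12 genes was called. This was Cd74, the invariant chain of antigen-presenting cells, which changed by -0.50 in Prlr-/- islets (adjusted p = 0.03 from limma, under the fold minimum) and fell by 0.77 in Prlr+/+ islets (adjusted p = 0.00568 from limma). Lymphocyte markers averaged 4.49 to 4.73 in Prlr-/- P9.5, 4.64 to 4.84 in Prlr+/+ P9.5, 4.97 to 5.04 in Prlr-/- NP and 4.84 to 4.88 in Prlr+/+ NP islets, with 6 of 12 at or below the highest Kdm5d value.

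Acinar markers were lower at P9.5 in Prlr-/- mice, beside the rise of Gbp3 and Gbp7 there. They averaged 9.06 to 10.62 in Prlr-/- P9.5 and 10.75 to 11.59 in Prlr-/- NP islets. Of the 8 genes, 7 were called lower there (median change -1.47). Each of these calls was lost when either Prlr-/- P9.5 replicate 3 or Prlr-/- NP replicate 1 was left out. In Prlr+/+ islets they averaged 9.44 to 10.64 at P9.5 and 10.43 to 10.89 in NP. The median change there was -0.72, with 0 called by limma and 0 at an unadjusted p under 0.05. The interaction likewise passed neither threshold for any acinar gene (median -0.73). The acinar fall is therefore not shown to differ between the genotypes. These counts were not compared with all probe sets. The part of the acinar shift in the Gbp values was not tested. Endothelial markers averaged 7.68 to 7.78 in Prlr-/- P9.5, 7.47 to 7.74 in Prlr+/+ P9.5, 7.51 to 7.57 in Prlr-/- NP and 7.73 to 7.86 in Prlr+/+ NP islets. Of these 11 genes, Emcn (0.77) and Tek (0.63) were called higher at P9.5 in Prlr-/- islets, and Plvap (-0.67) and Eng (-0.67) lower in Prlr+/+ islets. Of 5 ductal markers, Muc1 (-0.90) was called lower in Prlr-/- and Krt7 (-0.80) in Prlr+/+ islets.

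Likeness of profile was measured as the root mean square difference over the 12 arrays between gene profiles, each centred on its own mean. Gbp8 differed from the shared probe set by 0.371 and from the other members by 0.448 (Gbp7) to 0.551 (Gbp2), while the other members differed from each other by 0.16 to 0.34. Among 2846 genes whose values spanned at least 1, the 5 nearest to Gbp8 were Gm14636 (0.225), Fbxw24 (0.255), Lrrc55 (0.275), Hopx (0.281) and Tmem255a (0.287), all nearer than any member of its family. Lrrc55, an auxiliary subunit of potassium channels, was at 5.1, 5.4 and 5.1 in Prlr-/- P9.5, 6.4, 6.3 and 7.8 in Prlr+/+ P9.5, 5.3, 5.4 and 5.4 in Prlr-/- NP and 5.6, 5.1 and 5.4 in Prlr+/+ NP islets. Like Gbp8, Lrrc55 was highest in Prlr+/+ P9.5 replicate 3, as were Gm14636 (5.0) and Fbxw24 (5.6). Since the 5 were chosen as the nearest of 2846 genes and the family is small, their being nearer than its members is no result about the family. Their values are a description.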

How the data were processed

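Values of 12 Affymetrix MoGene_1.0_ST arrays were used, 3 per group, with 1 column per array. The deposited log2 values were made by the authors with robust multichip analysis in aroma.affymetrix, which corrects background and normalizes probes by quantiles, and they are rounded to 0.1. Which build the probe sets were designed on is not given in the sources used here. Symbols came from the platform annotation: 21789 of 35511 probe sets carry 1 symbol, 1621 several and 12101 none. The number of arrays limits the precision.

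A linear model with 4 group means was fitted to all probe sets in limma 3.58.1 (R 4.3.3), with Benjamini-Hochberg adjustment over all of them, and checked on simulated data. An exact permutation test of 3 arrays against 3 cannot give a p below 0.1. Members, gene lists, markers and alternatives were chosen with earlier results of these data known. The text names the 7 members and the 5 profiles nearest to Gbp8. Of each list it names the called genes and at most 3 with the largest changes per comparison. The pregnancy signature is an exception, since its calls other than Gbp8 are only counted. Flanking genes, Irf1 and Ifng fall outside this rule and were chosen after their values were seen. Alternatives were fits of the compared groups alone, a replicate block, each array left out, filters on dim or unnamed probe sets, quantile normalization, median centring, array weights, moderation with a trend and a robust prior, fold minimums of 1.2 and 2, added noise of up to 0.05, and the second brightest probe set. Added after seeing the data were members with their own probe set alone, equal probe sets counted once, and Prlr+/+ P9.5 replicates 2 and 3 left out together.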

Additional observations from a re-analysis of the deposited data

How the results depend on the processing

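The count of members called in Prlr-/- against Prlr+/+ islets at P9.5, 1 in the fit reported, was 0 with only the compared groups, the replicate block, quantile normalization, a fold minimum of 2 or only members with a probe set of their own, 2 without the dimmest 40% of probe sets, with only named probe sets, with median centring or with array weights, and 3 with the second brightest probe set, which is the same shared probe set for Gbp6, Gbp8 and Gbp9. It ranged from 0 to 1 when single arrays were left out. The Gbp8 difference at P9.5 passed the threshold without the dimmest 40% of probe sets (-1.17, adjusted p = 0.0318), with only named probe sets (-1.17, adjusted p = 0.00435), with median centring (-1.17, adjusted p = 0.0495), with array weights (-1.07, adjusted p = 0.0438) and by the shared probe set (-0.87, adjusted p = 0.0298). It was -1.32 to -0.87 with single arrays left out, and its adjusted p over all alternatives was 0.00435 to 0.421 (limma). Both filters on probe sets test fewer of them and refit the model on those kept. Why the call changed was not tested for any setting.

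In Prlr-/- islets the count at P9.5 against NP, 2, was 0 with a fold minimum of 2, since Gbp3 and Gbp7 both changed by 0.73, and 3 with Gbp2 added under median centring (0.63, adjusted p = 0.0172), quantile normalization (0.65, adjusted p = 0.0201, both from limma) or a fold minimum of 1.2. In Prlr+/+ islets it was 3 to 6 in place of 4, and Gbp8 was called in all 26 alternatives (1.2 to 1.65). The interaction was called for 2 members with only named probe sets, where Gbp8 was at -1.33 (adjusted p = 0.0337 from limma), and for 1 with array weights. In NP islets 0 members were called in all 27 alternatives.

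Replicate numbers are shared by the groups, but same-numbered arrays deviated together (r over 0.1) in 7 of 18 pairs, with r from -0.114 to 0.227, so they were not taken as pairs. With the replicate block Gbp8 was at -1.17 (adjusted p = 0.0664) at P9.5 and the shared probe set at -0.87 (adjusted p = 0.0787, both from limma). Other counts of calls were the same with the block.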

Other observations

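Of 10 genes of the immunoproteasome and MHC class I loading, the presentation of peptides at the cell surface, 2 were called higher at P9.5 in Prlr-/- and 1 in Prlr+/+ islets (median 0.27 each). Of all probe sets, 7.44% and 5.73% were called higher in these comparisons. Between genotypes at P9.5, 0 of the 10 were called, where 0.206% of all probe sets were called lower and 0.0253% higher. B2m, the light chain of MHC class I, was at 9.8, 9.9 and 9.9 in Prlr-/- P9.5, 10.1, 9.8 and 9.4 in Prlr+/+ P9.5, 8.8, 9.1 and 9.1 in Prlr-/- NP and 9.1, 8.4 and 8.7 in Prlr+/+ NP islets. All P9.5 arrays were above all NP arrays. Its change was 0.87 in Prlr-/- islets (adjusted p = 0.00594) and 1.03 in Prlr+/+ islets (adjusted p = 0.0036, both from limma). Erap1, which trims peptides for MHC class I, rose by 0.77 in Prlr-/- islets (adjusted p = 0.000261 from limma) and changed by 0.57 in Prlr+/+ islets, under the fold minimum.

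Some GBPs are anchored in membranes by prenylation. Of 8 genes for prenylation enzymes and GBP-fold relatives, Pggt1b, a subunit of the enzyme that attaches geranylgeranyl groups, rose at P9.5 by 0.63 in Prlr-/- islets (adjusted p = 0.00182) and by 0.67 in Prlr+/+ islets (adjusted p = 0.00226, both from limma). Fntb, the beta subunit of farnesyltransferase, rose by 0.63 in Prlr-/- islets (adjusted p = 0.0107 from limma). Each of these calls was lost without 1 or 2 of the 12 arrays. Of 10 interferon genes and genes that induce them, Ifna2 was at 5.0, 4.9 and 5.4 in Prlr-/- P9.5 and 5.9, 5.9 and 6.2 in Prlr-/- NP islets (-0.90, adjusted p = 0.00173, limma). Ifnz was at 6.0 on all 3 Prlr-/- P9.5 arrays, 6.1, 6.1 and 6.5 in Prlr+/+ P9.5, 8.8, 8.4 and 9.2 in Prlr-/- NP and 6.4, 6.9 and 6.5 in Prlr+/+ NP islets. Only the Prlr-/- NP arrays were high, the genotype difference in NP was 2.20 (adjusted p = 0.000946) and the interaction was -2.43 (adjusted p = 0.00738, both from limma). At the same thresholds over all probe sets, the authors reported Prlr as the single gene that differed in NP islets. Why Ifnz was called here was not tested.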
